A study of Homo sapiens with 12 samples.

Results

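The S100 family was followed in single cells of 3 cell lines from squamous carcinoma of the head and neck (HNSCC), measured with the 10x Chromium 3′ kit. Its members here are the rows S100A2, S100A4, S100A6, S100A7, S100A8, S100A9, S100A10, S100A11, S100A14 and S100A16 of the count tables and number 10 of 33514 gene symbols. Cells of SCC1, SCC6 and SCC25 had received cetuximab, which is an antibody that blocks the receptor EGFR, at 100 nM every day for 5 days from 24 h after seeding, or phosphate-buffered saline (PBS) on the same schedule as the untreated control. All 3 lines grew in the same serum-containing medium, and each is an established line and so stands for 1 tumour. There were 2 replicates for each of the 6 groups, or 12 samples, and the sources leave it unclear whether the replicates were separate cultures, so p-values here measure only the spread between these samples. Of the 6 squamous epithelial markers, EPCAM, CDH1 and TP63 were present in each group, but KRT5 averaged 1.21 CPM (molecules of the gene per 1000000 counted) and KRT14 0.58 CPM in SCC6 PBS, against 490 and 1369 CPM in SCC1 PBS. These basal keratins were thus nearly absent from SCC6 and abundant in SCC1.

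S100 proteins are small calcium-binding proteins with EF-hand domains, which usually form dimers and change shape when calcium binds, so that they take hold of other proteins. S100A8 and S100A9 pair to form calprotectin, which is abundant in neutrophils and which keratinocytes make when they are stressed, and S100A7 (psoriasin) is made by inflamed skin. S100A10 and S100A11 bind annexins at membranes, S100A6 (calcyclin) binds the ubiquitin ligase component CACYBP, S100A4 binds the heavy chain of non-muscle myosin, and S100A2 is typical of stratified epithelium. All 10 genes lie on chromosome 1 within 1633 kb (chr1:151982915-153616325, GRCh38.p14, from RefSeq), in a region rich in epidermal differentiation genes. S100A9 is the 1 member on the plus strand. It lies at chr1:153357854-153361023, with 29.0 kb between it and S100A8 at chr1:153390032-153422583.

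The 100 bases before the annotated start are shown for the calprotectin pair, for S100A7 and S100A4, and for the 3 other members that differed with cetuximab in SCC6. They come from RefSeq on GRCh38.p14, each read 5′ to 3′ in the direction of the gene. Capitals mark TATAAA (the TATA box), TGANTCA (bound by AP-1) and GCCNNNGGC (bound by TFAP2 factors), and S100A8 is shown at the start that has TATAAA close by, which is 1 of 3 annotated. S100A6 and S100A14 have no such match in the 100 bases shown.
S100A9, chr1:153357754-153357853, plus strand: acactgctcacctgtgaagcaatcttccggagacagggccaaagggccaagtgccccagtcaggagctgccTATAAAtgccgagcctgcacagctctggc
S100A8, chr1:153391074-153391173, minus strand: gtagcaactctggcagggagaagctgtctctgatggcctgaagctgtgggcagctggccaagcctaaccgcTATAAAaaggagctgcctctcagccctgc
S100A7, chr1:153460652-153460751, minus strand: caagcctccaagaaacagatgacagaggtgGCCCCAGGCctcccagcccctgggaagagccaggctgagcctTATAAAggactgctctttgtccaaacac
S100A4, chr1:153545807-153545906, minus strand: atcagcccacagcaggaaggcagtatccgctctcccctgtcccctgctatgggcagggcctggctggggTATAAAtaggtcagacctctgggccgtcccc
S100A2, chr1:153565845-153565944, minus strand: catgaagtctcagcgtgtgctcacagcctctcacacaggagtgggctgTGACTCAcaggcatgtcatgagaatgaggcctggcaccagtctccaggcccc
S100A6, chr1:153535992-153536091, minus strand: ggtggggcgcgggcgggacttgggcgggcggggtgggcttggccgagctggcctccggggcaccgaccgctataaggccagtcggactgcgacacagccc
S100A14, chr1:153616326-153616425, minus strand: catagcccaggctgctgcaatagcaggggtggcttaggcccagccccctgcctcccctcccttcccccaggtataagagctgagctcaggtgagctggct
These motifs, with TTCNNNGAA (STAT) and GGAATG (TEAD), were searched on both strands in windows from 250 bases before to 50 after the start, 14 windows for the 10 members, and all 10 matched RefSeq. TATAAA was present for 4 of the 10 members, S100A4, S100A7, S100A8 and S100A9. It lay in 5 of the 14 windows, with the same S100A8 match in overlapping windows, and in 11.5% of all 35116 promoter windows. TATAAA began 29 bases before the start in S100A9 and in the S100A8 window shown, 28 in S100A7 and 31 in S100A4. S100A6 and S100A14 hold no TATAAA in their windows. The sequences shown for both hold TATAAG, which differs in the last base and was not searched for. TGANTCA was found for S100A2 alone, 52 bases before the start (1 of the 14 windows), and in 7.71% of all windows. GCCNNNGGC was found for S100A2 (at its second start), S100A6 and S100A7, in 3 of the 14 windows, and in 23.2% of all windows. GGAATG was found for S100A16 alone (2 of the 14 windows) and in 14.03% of all windows, and TTCNNNGAA for no member and in 7.66%. A match describes letters in a window and is not a measured binding site.

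The 23914 cells fell into samples of 961 to 2854 cells and 57057402 to 112170073 unique molecular identifiers (UMIs), each UMI standing for 1 captured RNA molecule. The median cell had 24079 to 54864 UMIs, and the cetuximab samples of SCC6 stood furthest apart, with 24079 in replicate 1 and 50156 in replicate 2. Libraries of different groups shared 1 to 13 cell barcodes, and those of the same group 3 to 10. Levels are UMIs of a gene summed over all cells of a sample per 1000000 UMIs (CPM), counted at the 3′ end and therefore not scaled to length. Fold changes come from edgeR with TMM factors, which were 0.835 and 0.894 in SCC6 PBS and 1.02 and 1.00 in SCC6 cetuximab, so that fold changes in SCC6 lie below the plain ratios of CPM. A gene is called at a false discovery rate (FDR) under 0.05 over the 17897 genes tested. All 10 members passed the filter on low counts.

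Together the 10 members made up 1.32% to 1.62% of all UMIs in SCC1, 0.712% to 0.796% in SCC6 and 1.10% to 1.29% in SCC25. In SCC6 this sum was 0.712% and 0.774% in the PBS samples and 0.774% and 0.796% in the cetuximab samples. Within the sum, S100A10 and S100A11 lay higher and 7 members lower with cetuximab, as described next. The plot of levels by sample shows each member.

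**Figure D1:**
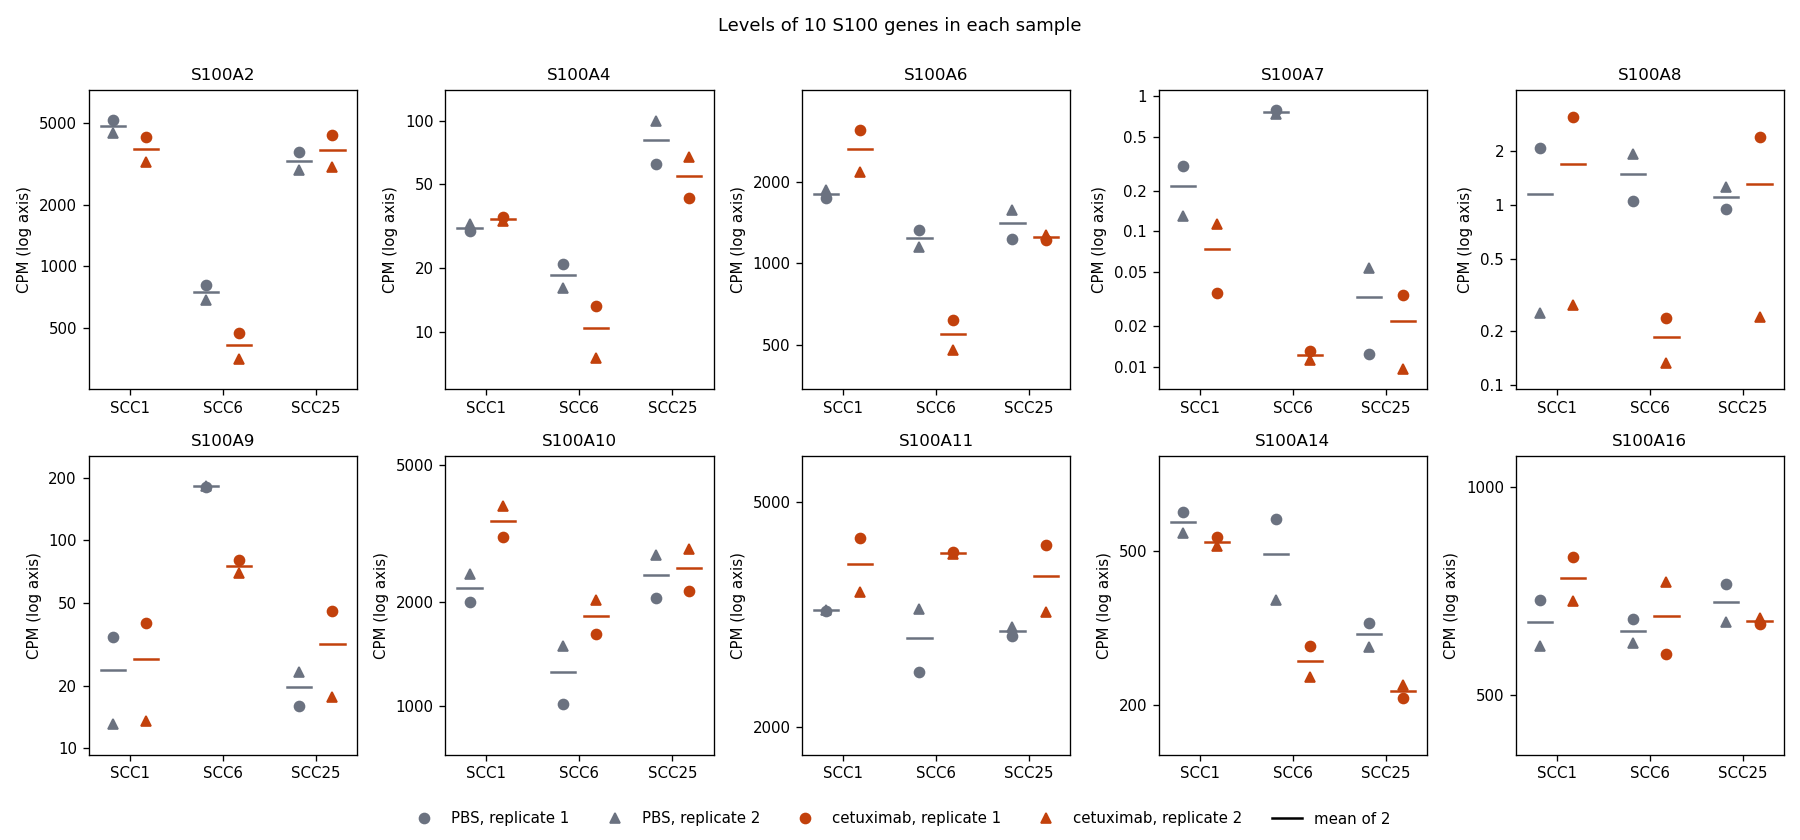
Level of each of the 10 S100 genes in CPM (log axis, a different range for each gene), with PBS in grey, cetuximab in orange, circles for replicate 1, triangles for replicate 2 and a bar for the mean of 2. In SCC6, both cetuximab points lie below both PBS points for 7 genes, while S100A8 and S100A9 in SCC1 differ more between replicates than between treatments.

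In SCC6, S100A2, S100A6 and S100A14 fell with cetuximab, and no member was called higher. S100A7 was also called lower (log2 fold change -6.05), but on 155 UMIs that lay mostly in 1 cell of each PBS sample. Without the highest cell of each sample its FDR was 0.0584 and its log2 fold change -6.81. That value rests on 28 UMIs with PBS and 0 with cetuximab. The question here was how the family responds to 5 days of EGFR blockade in each line. With S100A7, 4 of 10 members were called and stand against 3.81% of all genes called in SCC6 and 1.3% called lower. The median log2 fold change of the members was -1.13 and that of all genes was 0. In SCC6, CPM of both cetuximab samples lay below both PBS samples for 7 members (11.6% of all genes) and above them for 2, S100A10 and S100A11 (37.4% of all genes). S100A16 overlapped between the SCC6 groups. With the replicate number as a block within each line, 8 members were called in SCC6 against 20.1% of all genes, 7 of them lower and S100A10 higher. A block shared by the lines called 4, all lower, against 13.8% of all genes, and DESeq2 called 6, all lower, against 9.28%.

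In SCC1 and SCC25, no member was called. The 0 of 10 in SCC1 stand against 0.0168% of all genes called by edgeR, and the 0 of 10 in SCC25 against 0%. No member had an unadjusted p under 0.05 in either line, and DESeq2 called none in either line, against 1.51% of all genes in SCC1 and 0.564% in SCC25. The block within lines called 1 member in SCC1, S100A10, against 4.45% of all genes, and 0 in SCC25 against 0.978%. The shared block called 0 in SCC1 against 0.743% and 0 in SCC25 against 0.162%. In SCC1, CPM did not overlap for 7 members, 4 higher with cetuximab (24.7% of all genes) and 3 lower (17.3%). In SCC25 it did not overlap for S100A11, which was higher (16.3% of all genes), and for S100A14, which was lower (12.9%).

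**Figure D2:**
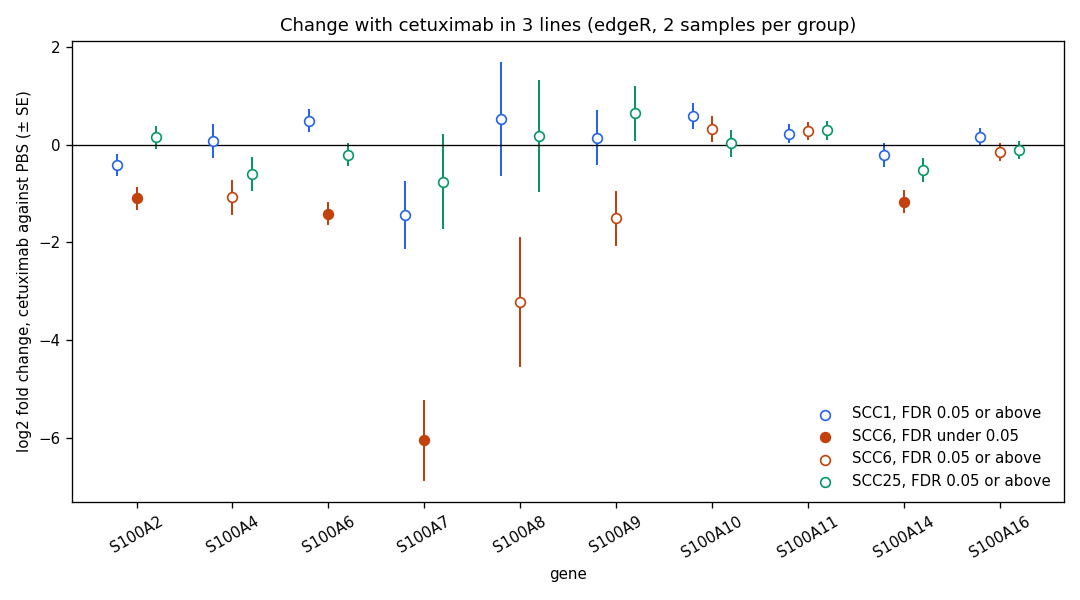
Log2 fold change of cetuximab against PBS (vertical axis, ± SE, from the fit of all 12 samples) for the 10 S100 genes in SCC1 (blue), SCC6 (orange) and SCC25 (green), 2 samples a group. Filled points have an FDR under 0.05, and these are S100A2, S100A6, S100A7 and S100A14 in SCC6.

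S100A10, also known as p11, is the partner of annexin A2 at the plasma membrane. In SCC1 it stood at 1999 and 2409.5 CPM with PBS and at 3084 and 3800 CPM with cetuximab. In SCC6 it stood at 1013 and 1495 CPM with PBS and at 1618 and 2028 CPM with cetuximab, and in SCC25 at 2064 and 2743 against 2159 and 2859 CPM. In CPM, both cetuximab samples thus lay above both PBS samples in SCC1 and SCC6, while the ranges overlapped in SCC25. CPM leaves out the TMM factors that enter the fold changes. These factors were lower in SCC6 PBS than in SCC6 cetuximab, so the SCC6 gap is wider in CPM than in the fit. The log2 fold change was 0.59 ± 0.27 (SE, FDR 0.589) in SCC1, 0.32 ± 0.27 (FDR 0.559) in SCC6 and 0.02 ± 0.27 (FDR 1) in SCC25. With the replicate block within lines S100A10 was called in SCC1 (FDR 0.0161) and SCC6 (FDR 0.0413), but not with the block shared by the lines (FDR 0.0647 and 0.116).

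S100A11, which binds annexin A1, lay above PBS in both cetuximab samples of each line. It stood at 3218 and 3230 CPM with PBS against 4318 and 3472 CPM with cetuximab in SCC1, at 2505 and 3238 against 4085 and 4054 CPM in SCC6, and at 2899 and 3010 against 4199 and 3199 CPM in SCC25. Its log2 fold changes of 0.22, 0.28 and 0.29 had an SE of 0.19 each and none was called, with an FDR of 0.871, 0.466 and 0.965. In the fit across lines S100A11 reached a log2 fold change of 0.26 ± 0.10 with an FDR of 0.163. All thinned cells of all groups were positive for S100A11.

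S100A6, the calcyclin gene, had opposite directions in SCC1 and SCC6. In SCC6 it fell from 1327 and 1150.3 CPM to 617 and 480 CPM, a log2 fold change of -1.41 ± 0.24 (FDR 0.016). In SCC1 it stood at 1743 and 1868 CPM with PBS and 3112 and 2174 CPM with cetuximab (0.49 ± 0.24, FDR 0.614). In SCC25 the samples overlapped, at 1235 and 1579 CPM with PBS and 1224 and 1273 CPM with cetuximab (-0.21 ± 0.24, FDR 1). The test of the difference between lines gave an FDR of 0.292 for S100A6 without a block, 0.0283 with the block within lines, 0.0866 with the shared block and 0.000674 with DESeq2. The median cell of SCC6 thinned to 15000 UMIs held 18 and 16 S100A6 UMIs with PBS and 8 and 6 with cetuximab. The 10th percentile was 9 and 7 against 2 and 2, and the 90th percentile 33 and 29.5 against 17 and 14. The lower level was thus seen at low, middle and high percentiles of cells.

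S100A2 separated the lines and also fell in SCC6. With PBS it stood at 5178 and 4506 CPM in SCC1 and 3630 and 2952 CPM in SCC25, but at 815 and 685 CPM in SCC6. With cetuximab SCC6 reached 473 and 352 CPM, a log2 fold change of -1.10 ± 0.24 (FDR 0.0329). In SCC1 the cetuximab samples held 4274 and 3229 CPM (-0.42 ± 0.23, FDR 0.702), and in SCC25 4373 and 3077 CPM (0.15 ± 0.23, FDR 1). The difference of the effect between lines had an FDR of 0.501, of 0.0312 with the block within lines, of 0.0906 with the shared block and of 0.112 with DESeq2. In SCC6 the share of cells with S100A2 hardly differed, 87.7% ± 2.68 (SD, n = 2) with PBS and 87.0% ± 2.78 with cetuximab after thinning. The 90th percentile of UMIs per SCC6 cell was 33 and 26 with PBS and 18 and 14 with cetuximab, so that the cells with most S100A2 held fewer UMIs.

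S100A14 lay lower with cetuximab in every line. It stood at 632 and 558 CPM against 543 and 517 CPM in SCC1, at 608 and 375 against 283 and 236 CPM in SCC6, and at 326 and 282 against 208 and 225 CPM in SCC25. No cetuximab sample reached a PBS sample of its line. The log2 fold change was -0.21 ± 0.24 (FDR 0.929) in SCC1, -1.16 ± 0.24 (FDR 0.0301) in SCC6 and -0.52 ± 0.24 (FDR 0.875) in SCC25. Across the lines it was -0.63 ± 0.17 with an FDR of 0.0638, and of 0.0367 with the block within lines. The share of thinned cells with S100A14 was 98.1% ± 1.37 in SCC6 PBS and 90.1% ± 3.56 in SCC6 cetuximab, and 91.6% ± 1.52 and 82.3% ± 2.49 in SCC25. Unthinned, 99.4% of SCC6 cells were positive with PBS and 96.2% with cetuximab, and of SCC25 cells 97.3% and 94.4%.

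S100A16, a widely expressed member, differed little between lines and treatments. It stood at 686 and 589 CPM with PBS and 793 and 685 CPM with cetuximab in SCC1. In SCC6 it stood at 644 and 594 against 574 and 729 CPM, and in SCC25 at 723 and 638 against 633 and 647 CPM. The groups overlapped in each line. Its log2 fold changes were 0.17, -0.16 and -0.12 in SCC1, SCC6 and SCC25, each with an SE of 0.18 and an FDR of 0.923, 0.688 and 1. No pair of untreated lines was called for it.

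S100A4, which binds non-muscle myosin and is linked to cell motility, was highest in SCC25. With PBS it stood at 62.3 and 99.8 CPM in SCC25, 29.9 and 32.5 CPM in SCC1 and 20.9 and 16.1 CPM in SCC6. With cetuximab it stood at 43.0 and 67.1 CPM in SCC25, 34.8 and 33.7 CPM in SCC1 and 13.2 and 7.46 CPM in SCC6. The SCC6 ranges did not overlap, with a log2 fold change of -1.08 ± 0.35 (FDR 0.124, 0.00263 with the block within lines and 0.0593 with the shared block). In SCC25 replicate 2 lay above replicate 1 in both arms, and each cetuximab sample lay below the PBS sample of its number (-0.60 ± 0.35, FDR 0.93). In SCC1 the log2 fold change was 0.08 ± 0.35 (FDR 1). The share of thinned cells with S100A4 was 22.5% ± 2.26 in SCC6 PBS and 13.1% ± 5.64 in SCC6 cetuximab, 62.8% ± 9.51 and 51.2% ± 10.1 in SCC25, and 34.7% ± 1.85 and 34.8% ± 1.19 in SCC1. Without thinning the SCC6 shares were 41.0% and 27.0%.

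S100A9, the larger subunit of calprotectin, was high in SCC6. Its level with PBS was 181 and 183 CPM in SCC6, 34.4 and 13.02 CPM in SCC1 and 16.01 and 23.2 CPM in SCC25. With cetuximab it was 80.4 and 69.7 CPM in SCC6, 39.9 and 13.5 CPM in SCC1 and 45.5 and 17.7 CPM in SCC25. In SCC6 the groups were far apart, and in the other lines they overlapped. The log2 fold change in SCC6 was -1.51 ± 0.57 with an FDR of 0.176, in a fit that estimates 1 spread per gene over all lines. With the block within lines the SCC6 value was called (FDR 0.0248), but not with the shared block (FDR 0.0501) or with DESeq2 (0.0688). In SCC1 the log2 fold change was 0.14 ± 0.56 and in SCC25 0.64 ± 0.56 (FDR 1 each).

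In single cells, 66.0% ± 1.60 of thinned SCC6 cells were positive for S100A9 with PBS and 43.6% ± 0.121 with cetuximab. The samples were 64.9% and 67.2% against 43.7% and 43.5%, with exact 95% intervals from 63.0% to 66.7% in PBS replicate 1 and from 41.8% to 45.6% in cetuximab replicate 1, which cover counting error only. Unthinned, 82.2% and 61.8% of cells were positive. Genes that such cells should lack (PTPRC, CD3E, ALB, HBB, CSF3R and FCGR3B) were found in at most 0.302% of thinned cells of any sample, a value reached by CSF3R in SCC6 PBS replicate 1 (8 of 2652 cells). In SCC1 8.66% ± 0.0896 of cells were positive with PBS and 9.73% ± 7.35 with cetuximab, and in SCC25 15.7% ± 4.78 and 22.1% ± 8.54. These differences lay within the spread between replicates.

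**Figure D3:**
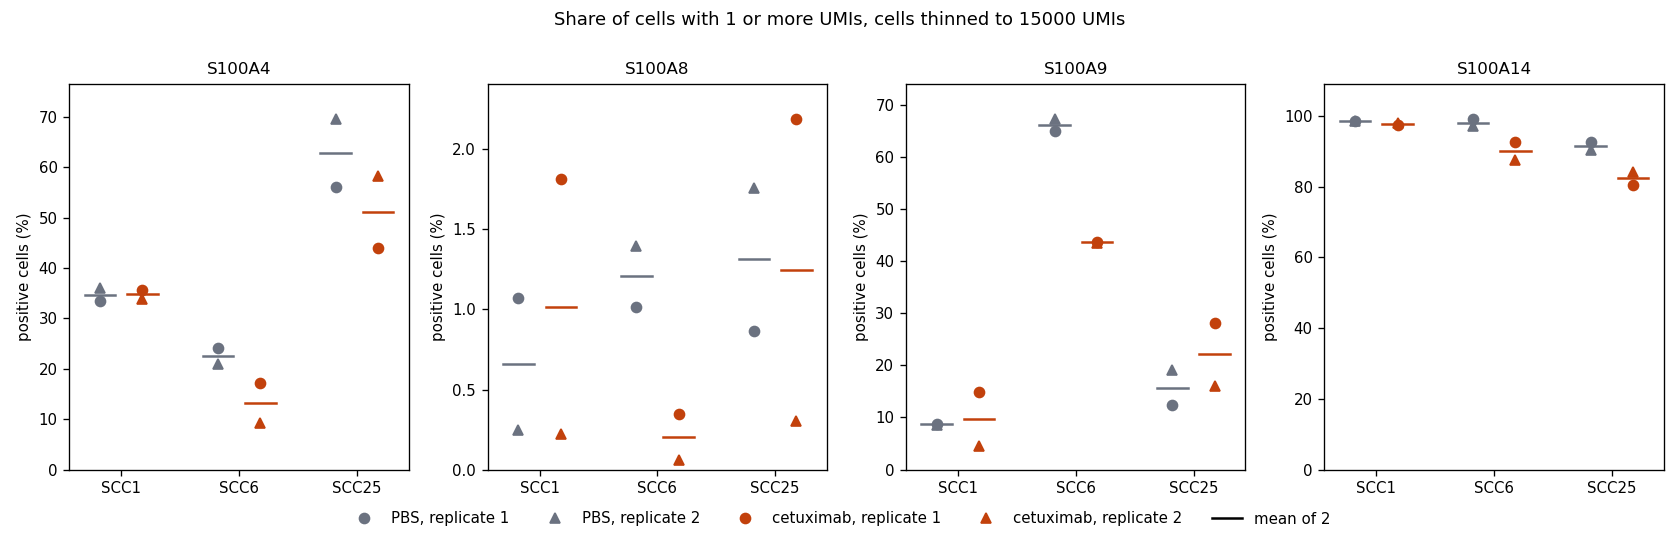
Share of cells with 1 or more UMIs of S100A4, S100A8, S100A9 and S100A14 (vertical axis, percent of cells, each cell thinned to 15000 UMIs), with PBS in grey, cetuximab in orange, circles for replicate 1, triangles for replicate 2 and a bar for the mean of 2. For S100A9 the SCC6 samples sit at 64.9% and 67.2% with PBS and at 43.7% and 43.5% with cetuximab.

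S100A8, the other subunit of calprotectin, was found in few cells. It stood at 1.05 and 1.92 CPM with PBS and 0.237 and 0.133 CPM with cetuximab in SCC6, or 105 and 197 UMIs against 18 and 12. Pooled over replicates, the CPM ratio of PBS to cetuximab was 8.23, with an exact 95% interval of 5.64 to 12.4 for counting error alone. The log2 fold change in SCC6 was -3.22 ± 1.33 (FDR 0.211, and 0.0326 with the block within lines). In PBS replicate 2, 110 of the 197 UMIs came from 1 cell. In SCC1, replicate 1 held 2.06 and 3.08 CPM with PBS and cetuximab and replicate 2 held 0.25 and 0.279 CPM, so that replicates differed more than treatments. In SCC25 the levels were 0.951 and 1.27 CPM against 2.37 and 0.239 CPM, with the cetuximab samples on both sides of the PBS samples. The log2 fold changes were 0.53 ± 1.17 in SCC1 and 0.18 ± 1.15 in SCC25 (FDR 1 each). The share of thinned cells with S100A8 was 1.21% ± 0.267 in SCC6 PBS and 0.204% ± 0.202 in SCC6 cetuximab, the latter from 9 of 2592 and 1 of 1639 cells. Genes these cells should lack reached 0.0386% and 0.0610% in the same cetuximab samples.

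S100A8 was found mostly where S100A9 was, except in SCC25 cetuximab replicate 2, where 33.3% of the 6 S100A8-positive thinned cells held S100A9. In SCC6 PBS 96.3% of the 27 S100A8-positive thinned cells of replicate 1 and 94.1% of the 34 of replicate 2 were positive for S100A9, against 64.6% and 66.8% of the other cells. In SCC25 the share was 57.9% and 65.9% with PBS against 11.9% and 18.2% of the other cells. In every one of the 12 samples the share was higher in S100A8-positive cells, although these numbered 1 to 44 a sample. All cells had been thinned to the same number of UMIs.

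S100A7 was called in SCC6, but on very few molecules. The PBS samples held 0.787 and 0.739 CPM and the cetuximab samples 0.0132 and 0.0111 CPM. These levels rest on 79 and 76 UMIs with PBS, in 8 of 2731 and 9 of 2486 cells, and on 1 UMI each with cetuximab. The pooled CPM ratio was 63.3, with an exact 95% interval of 17.2 to 528 for counting error alone, and the fit gave an FDR of 0.00847. One cell held 59 of the 79 UMIs in PBS replicate 1 and 1 cell 68 of the 76 in replicate 2. Without the highest cell of each sample, an alternative chosen after seeing the data, 28 UMIs remained with PBS and 0 with cetuximab, and the FDR was 0.0584. S100A7 was found in 5 of 2652 thinned cells of SCC6 PBS replicate 1 (0.189%) and in 5 of 2436 of replicate 2 (0.205%). CSF3R, the most frequent of the genes these cells should lack, was found in 0.302% and 0.0411% of the same cells. In SCC1 S100A7 had 19 and 12 UMIs with PBS and 2 and 9 with cetuximab (log2 fold change -1.44 ± 0.70, FDR 0.62), and in SCC25 1 and 6 against 3 and 1 (-0.75 ± 0.97, FDR 1). S100A7A, a near-identical neighbour, was at 0 in 11 of 12 samples and at 0.00996 CPM in 1 SCC6 PBS sample, and how reads shared by the pair were counted is not given in the sources used here.

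**Figure D4:**
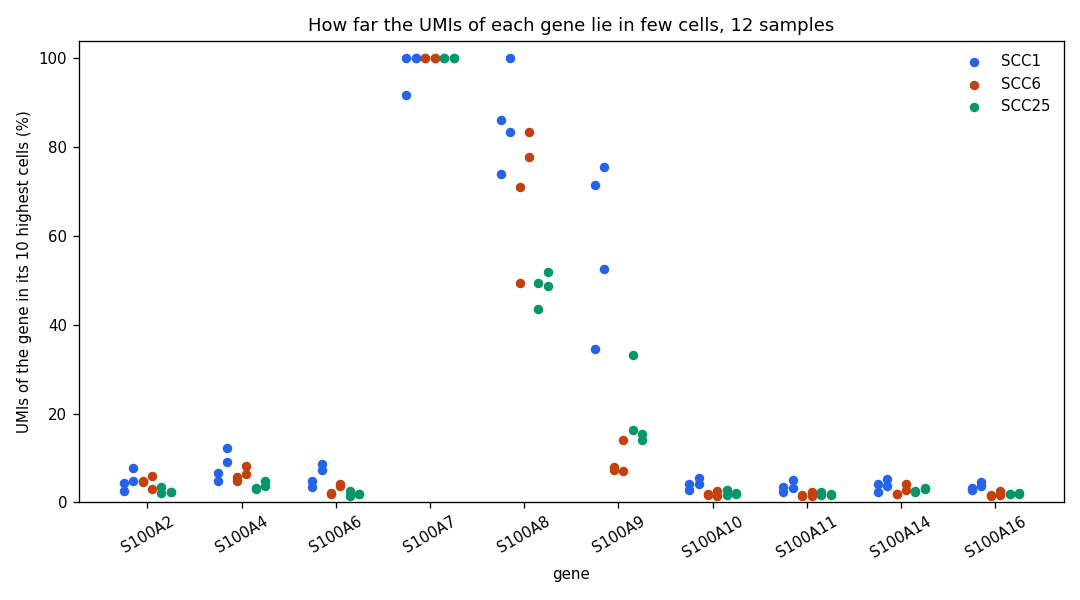
Percentage of the UMIs of each S100 gene (vertical axis, from 0) that lie in the 10 cells with most of them, 1 point per sample, with SCC1 in blue, SCC6 in orange and SCC25 in green, and PBS left of cetuximab. S100A7 lies at 91.7% to 100% and S100A8 at 43.7% to 100%, while S100A10 and S100A11 stay under 6% in all 12 samples.

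The members differed in how their molecules were spread over cells. For S100A2, S100A6, S100A10, S100A11, S100A14 and S100A16 the 10 highest cells of a sample held 1.44% to 8.75% of the UMIs, and for S100A4 3.06% to 12.2%. For S100A9 they held 7.07% to 14.1% in SCC6, 13.97% to 33.2% in SCC25 and 34.5% to 75.6% in SCC1. In SCC1 PBS replicate 1, a single cell held 592 of 2150 S100A9 UMIs. As to other cell types that make calprotectin, the leukocyte and neutrophil markers PTPRC, CSF3R, FCGR3B and MPO averaged at most 0.09 CPM in any group. The 8 myeloid markers summed to 11.9 to 25.7 CPM in SCC6 PBS and 3.45 to 4.34 CPM in SCC6 cetuximab, most of it CD68, which averaged 18.6 and 3.76 CPM there and 176 CPM in SCC25 PBS. The 6 fibroblast markers summed to 0.947 and 2.79 CPM in SCC6 PBS and 25.2 and 21.1 CPM in SCC6 cetuximab, most of it COL1A1. The part of these genes in the SCC6 results was not tested.

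Between untreated lines, 3 members differed between SCC1 and SCC6, 3 between SCC1 and SCC25 and 6 between SCC6 and SCC25. The shares of all genes called were 40.2%, 40.8% and 40.9%, near which the first 2 counts lie. S100A2 was higher in SCC1 than in SCC6 by 2.35 ± 0.25 on the log2 scale (FDR 5.08e-05) and higher in SCC25 than in SCC6 (-1.98 ± 0.24 for SCC6 against SCC25, FDR 0.000158). S100A9 was higher in SCC6 than in SCC25 by 3.35 ± 0.61 (FDR 0.00182), and for SCC1 against SCC6 it stood at -3.31 ± 0.61 (FDR 0.00184). S100A4 was higher in SCC25 than in both other lines, with -1.58 ± 0.36 for SCC1 against SCC25 (FDR 0.00564) and -1.997 ± 0.36 for SCC6 against SCC25 (FDR 0.00169). S100A14 was lower in SCC25, by 0.77 ± 0.24 against SCC1 (FDR 0.0261) and 0.85 ± 0.24 against SCC6 (FDR 0.0173). S100A10 was lower in SCC6 than in SCC25 (-0.81 ± 0.27, FDR 0.0357).

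The order of untreated levels was therefore SCC1, SCC25, SCC6 for S100A2, with the first pair not called (FDR 0.239). It was SCC25, SCC1, SCC6 for S100A4, with the last pair not called (FDR 0.375), and SCC6, SCC1, SCC25 for S100A9, with the last pair not called (FDR 0.969). For S100A14 it was SCC1, SCC6, SCC25 by CPM, with the first pair not called (-0.08 ± 0.24 for SCC1 against SCC6, FDR 0.837). S100A6, S100A8, S100A11 and S100A16 were called in no pair. S100A7 was called in all 3 pairs, but between SCC1 and SCC6 it was no longer called without the highest cell of each sample (FDR 0.728). Without SCC1 PBS replicate 1 or SCC25 PBS replicate 1, calls of members between SCC1 and SCC25 were lost. Calls over all genes also became fewer in these fits, which leave 1 sample in a group.

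Across the 3 lines no member was called for cetuximab by edgeR, against 3.67% of all genes. At an unadjusted p under 0.05 there were 5, against 21% of all genes, and DESeq2 called 2, S100A7 (FDR 0.0104) and S100A14 (FDR 0.0144), against 9.9%. The block within lines called S100A14 alone, against 11.6% of all genes, and the shared block called 2, also against 11.6%. The fitted log2 fold changes across lines were -2.86 ± 0.76 for S100A7 (FDR 0.0588), -0.45 ± 0.19 for S100A2 (FDR 0.203) and -0.53 ± 0.23 for S100A4 (FDR 0.213). S100A10, at 0.31 ± 0.16 (FDR 0.283), lay on the other side of 0 with S100A11. The other 4 members lay between -0.65 for S100A8 and -0.04 for S100A16, none of them at an unadjusted p under 0.05. For the difference of the effect between lines no member was called, against 0% of all genes, with 4 at an unadjusted p under 0.05 against 7.36%. DESeq2 called 2 there, S100A6 and S100A7 (FDR 0.0491), against 1.6% of all genes. The block within lines called 2, S100A2 and S100A6, against 1.29%, and the shared block 0, against 0.101%.

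The SCC6 calls rested on few samples. Leaving out 1 sample at a time leaves 1 sample in its group. Calls of members were lost without SCC6 PBS replicate 1, either SCC6 cetuximab replicate or either SCC1 PBS replicate. Calls over all genes also became fewer in these fits. The log2 fold changes of the 4 called members kept their sign in each of these fits, from -1.59 to -1.26 for S100A6, -1.31 to -0.92 for S100A2, -1.51 to -0.72 for S100A14 and -6.15 to -5.96 for S100A7. The value of -0.72 was found without SCC6 PBS replicate 1. S100A16, which was not called, turned to 0.016 without SCC6 cetuximab replicate 1.

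In single cells the members varied together to different degrees. Within each sample, Pearson r of log2(UMIs + 1) between thinned cells was computed for the 45 pairs, as a description, since the cells of a sample share library and depth. S100A10 and S100A11 had the highest value, with a median of 0.55 over 12 samples and a range of 0.45 to 0.65. S100A6 and S100A11 followed with a median of 0.32, and S100A10 and S100A16 with 0.32. S100A8 and S100A9 had a median of 0.27 and were above 0 in all 12 samples, but few cells hold S100A8. S100A2 and S100A4 had the lowest median, -0.13, and were below 0 in 10 of 12 samples. S100A9 showed next to no relation to S100A10 (median -0.01) or S100A11 (0.06).

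**Figure D5:**
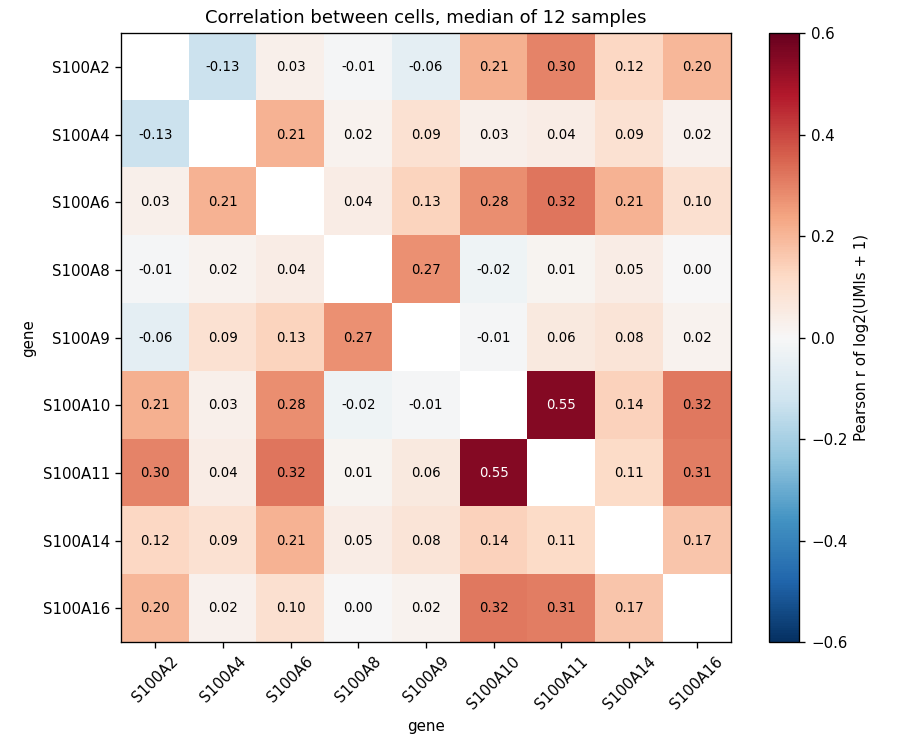
Median over 12 samples of Pearson r between cells (log2(UMIs + 1), cells thinned to 15000 UMIs) for each pair of 9 S100 genes, both axes listing the genes, red above 0 and blue below, with S100A7 left out because of its few UMIs. The highest value is 0.55 for S100A10 and S100A11, and the lowest -0.13 for S100A2 and S100A4.

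The genes whose levels moved most like the calprotectin pair over the 12 samples, after subtracting each line's mean of log2(CPM + 1), were sought among 7575 genes with a mean of 10 CPM or more. For S100A9 they were KRT6B (r 0.89), CHMP4B (r 0.88) and LYSMD2 (r 0.87). For S100A8 they were NAPG (r 0.94), LYSMD2 (r 0.91) and TLCD1 (r 0.86). For S100A7 they were SNX8, LY6K and ATP5F1D (r 0.96 each), but the S100A7 profile over samples rests on the SCC6 PBS samples. These are the highest values among many genes and are a description.

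Of 11 other S100 genes, 6 passed the filter. S100P and S100A5 fell in SCC6, by a log2 fold change of -3.52 ± 0.74 (FDR 0.0309) and -2.62 ± 0.45 (FDR 0.0163), and all 6 tested had a value below 0 there, with a median of -0.78. S100P averaged 66.5 CPM in SCC6 PBS and 6.93 CPM in SCC6 cetuximab, whereas S100A5 was near the detection limit at 0.57 and 0.11 CPM. S100A13 averaged 207 and 209 CPM in SCC6 PBS and cetuximab, and edgeR called none of the 11 in SCC1 or SCC25, where none had an unadjusted p under 0.05 and DESeq2 called 0. Of 7 fused S100 genes, which join an S100 domain to a long repeat and build the outer skin layer, 3 passed the filter. TCHHL1 (trichohyalin-like 1) rose in SCC6, by 2.59 ± 0.55 (FDR 0.0315), and across lines by 2.67 ± 0.36 (FDR 0.006), from 0.27 to 1.90 CPM in SCC6 and from 0.11 to 0.84 CPM in SCC1.

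All 12 partners and receptors of S100 proteins passed the filter. MYH9, the myosin heavy chain that S100A4 binds, rose in SCC6 by 1.14 ± 0.24 (FDR 0.0289), from 150 to 391 CPM, and across lines by 0.85 ± 0.14 (FDR 0.0126). No other partner was called for cetuximab in any line by edgeR, with 1 of 12 at an unadjusted p under 0.05 in SCC1 and 1 in SCC25, and DESeq2 called 0 in these lines. With the block within lines ANXA5 rose (0.88 ± 0.16, FDR 0.00871) and ANXA1 (-0.99 ± 0.23, FDR 0.0206) and CACYBP (-0.60 ± 0.14, FDR 0.0208) fell in SCC6. ANXA2, the partner of S100A10, averaged 2351 CPM in SCC6 PBS and 3310 CPM in SCC6 cetuximab. Of the receptors of calprotectin, TLR4 averaged at most 1.08 CPM and AGER (RAGE) at most 1.28 CPM in any group.

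Of 15 tested genes of squamous differentiation, 1 was called in SCC6, TGM1, a transglutaminase of the cornified envelope, at 2.11 ± 0.50 (FDR 0.0457), and none in SCC1 or SCC25 by edgeR or DESeq2, with 2 at an unadjusted p under 0.05 in SCC1 and 0 in SCC25. Of 14 tested inflammatory genes of stressed keratinocytes, 1 was called in SCC6, IL1B (interleukin 1 beta), at -2.53 ± 0.57 (FDR 0.0406), from 60.8 to 12.4 CPM. All 14 had a log2 fold change below 0 in SCC6, with a median of -1.66, and all 14 above 0 in SCC25, with a median of 1.65, while S100A9 stood at -1.51 and 0.64 in these lines. The SCC25 direction rested on cetuximab replicate 1, in which all 14 lay above both PBS samples, against 5 above and 5 below in replicate 2. CXCL8 (interleukin 8) stood at 66.7 and 4.12 CPM in these samples and at 6.46 and 6.68 CPM with PBS. Without SCC25 cetuximab replicate 1 the median of the 14 was -0.43. In SCC25 edgeR called 0 of the 14, with 5 at an unadjusted p under 0.05, and DESeq2 called 0. In SCC1, 12 of the 14 lay above 0 and 2 below, with a median of 1.14, or 0.23 with the block within lines. There edgeR called 0, with 2 at an unadjusted p under 0.05, and DESeq2 called 0. CXCL8 ranged from 22.3 to 289 CPM between the SCC1 cetuximab samples. For the difference between lines edgeR called 0, with 8 at an unadjusted p under 0.05, and DESeq2 called 1.

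Between untreated lines, of the 6 other S100 genes tested, 5 were called between SCC1 and SCC6, 1 between SCC1 and SCC25 and all 6 between SCC6 and SCC25. S100A12, the third calgranulin gene, was higher in SCC6 than in SCC25 by 4.05 ± 0.91 (FDR 0.00802), in the direction of S100A9. S100A12 lay near the detection limit, however, with means of 0.33 CPM in SCC6 PBS and 0.018 CPM in SCC25 PBS. S100P was higher in SCC6 than in SCC25 by 2.44 ± 0.71 (FDR 0.0188). S100A3 was higher in SCC1 than in SCC6 by 2.46 ± 0.23 (FDR 2.71e-05), in the direction of S100A2. Of the 12 partners and receptors 4, 5 and 4 were called in these 3 comparisons, of the 15 differentiation genes 7, 3 and 7, and of the 14 inflammatory genes 4, 3 and 6, where 40.2%, 40.8% and 40.9% of all genes were called.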

How the data were processed

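Gene counts were made by the authors, per the labels from 10x Chromium 3′ v2 libraries with Cell Ranger on GRCh38, and deposited as raw UMI counts per cell in 1 matrix per line. Here they were summed per sample and tested with edgeR 4.0.16 (R 4.3.3) by the quasi-likelihood test with TMM factors, filterByExpr and Benjamini-Hochberg adjustment over 17897 genes at 0.05, over 6 groups of 2 samples in 1 fit, and without the line-by-treatment terms for the fit across lines. DESeq2 1.42.0 and the other settings of the closing section were alternatives, of which leaving out the highest cell of each sample was chosen after seeing the data. Methods were tested on simulated data, in which edgeR recovered 7% of 100 2-fold changes and 83% of 100 4-fold changes placed in SCC6. A member that was not called can therefore still have changed by 2-fold, and also by more, since some 4-fold changes were missed.

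Deviations of same-numbered samples correlated in each line (r = 0.320 in SCC1, 0.313 in SCC6 and 0.571 in SCC25, over genes), so a replicate block within lines was fitted too. For shares of cells, each cell was thinned to 15000 UMIs, which left out 851 of 23914 cells, 0.847% to 9.18% of a sample. No doublet caller was run. The 10 members, each named in every contrast, and the gene lists, of which up to 4 called genes were named, were chosen with earlier results of these data known. Exact intervals and the depth of 57057402 to 112170073 UMIs a sample cover counting error only.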

Additional observations from a re-analysis of the deposited data

Results flagged for a closer look

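The effect of cetuximab on S100A2 and S100A6 differed between lines when the replicate number was blocked within lines, with an edgeR FDR of 0.0312 for S100A2 and 0.0283 for S100A6. Without the block these values were 0.501 and 0.292, with a block shared by the lines 0.0906 and 0.0866, and with DESeq2 0.112 and 0.000674. For S100A6 both cetuximab samples lay above both PBS samples in SCC1 (log2 fold change 0.49) and below them in SCC6 (-1.41).

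S100A4 had the same pattern in CPM, with both cetuximab samples above PBS in SCC1 (log2 fold change 0.082) and below PBS in SCC6 (-1.08). The SCC1 value was small beside its SE of 0.35, and was -0.050 without SCC1 PBS replicate 1. The test of the difference between lines for S100A4 gave an FDR of 0.789 without a block and 0.0593 with the block within lines. With the shared block it was 0.439, and with DESeq2 0.661. Groups of 2 samples were too small to screen for outlying samples.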

How the results depend on the processing

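With 2 samples a group and 6 residual degrees of freedom, a call could turn on 1 library. Of the 10 members, 4 were called in SCC6, against 7 without a filter on low counts and 8 with the replicate block within lines. Of all genes, 1233 of 25899 were called without the filter and 20.1% with that block. Each of the 4 SCC6 calls was lost in some fits with 1 sample left out, which leave 1 sample in a group. With the 4 SCC6 samples alone the FDR was 0.106 for S100A2, 0.0531 for S100A6 and 0.137 for S100A14. S100A8 (FDR 0.0354) and S100A9 (FDR 0.0403) were called in that fit, as were 265 of all 15925 genes tested in it. In SCC1 the block within lines called 1. Across lines, where edgeR called 0, the counts were 2 without the filter (1043 of all 25899 genes) and 2 with DESeq2. They were 1 with the block within lines and 2 with a replicate block shared by the lines. For the difference between lines, where edgeR called 0, they were 2 without the filter (248 of all 25899 genes), 2 with DESeq2 and 2 with the block within lines. Between untreated SCC1 and SCC25, 0 to 3 were called with 1 sample left out.

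Values that turned sign were not called. Without the highest cell of each sample, log2 fold changes became -0.082 for S100A8 in SCC1 and 0.0032 for S100A7 in SCC25, and -0.19 for S100A9 in untreated SCC1 against SCC25. With the replicate block, S100A8 in SCC25 was -0.39 within lines and -0.53 shared, and S100A9 in SCC1 against SCC25 -0.16 shared. With the 6 PBS samples alone S100A9 in SCC1 against SCC25 was -0.0013 and S100A16 in SCC6 against SCC25 -0.0044, and the latter was -0.014 with DESeq2 and with its size factors. The cause was not tested.

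With 1 sample left out, log2 fold changes in SCC1 ranged from -0.050 to 0.22 for S100A4, -2.01 to 2.59 for S100A8 and -0.81 to 0.90 for S100A9. In SCC6 S100A16 ranged from -0.36 to 0.016. In SCC25 the ranges were -0.098 to 0.37 for S100A2, -0.43 to 0.044 for S100A6, -1.76 to 0.72 for S100A7, -2.22 to 1.04 for S100A8, -0.16 to 1.16 for S100A9 and -0.22 to 0.31 for S100A10. Across lines they were -0.54 to 0.0016 for S100A9 and -0.086 to 0.022 for S100A16. Between untreated SCC1 and SCC6 they were -2.81 to 0.083 for S100A8 and -0.42 to 0.38 for S100A14. Between SCC1 and SCC25 they were -0.052 to 0.42 for S100A6, -2.27 to 0.62 for S100A8, -0.72 to 0.54 for S100A9 and -0.15 to 0.022 for S100A11. Between SCC6 and SCC25 they were -0.26 to 0.21 for S100A6, -0.046 to 0.23 for S100A11 and -0.096 to 0.12 for S100A16. Of 30 shares of positive cells, 16 moved by more than the replicate SD without thinning, 24 at a lower depth and 18 with 2 or more UMIs as the limit.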
